A study of Mus musculus with 47 samples.

Results

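The genes described here are those that encode the proteasome in mouse liver and spermatozoa. They were taken as every gene symbol in the count files that begins with Psm, continues with a letter from a to g and then a digit, whatever its level, which gave 49 of the 23416 genes. The 10 libraries came from males of 8 to 12 weeks in 5 groups of 2 biological replicates: Ctrl-F1 liver, KO-F1 liver, Ctrl-F1 spermatozoa, KO-F1 spermatozoa and KO-F2 spermatozoa. The fathers of KO-F1 males were Scml2-KO (-/y) males, which lack a germline Polycomb protein encoded on the X chromosome, and those of Ctrl-F1 males their wild-type littermates, in both cases through intracytoplasmic sperm injection (ICSI) of testicular sperm into BDF1 oocytes. KO-F2 males were born to KO-F1 males housed with C57BL/6 females, and no F2 group from control males was analysed here, so their comparisons use Ctrl-F1 or KO-F1. The labels give the strain of the F1 groups as BDF2 and that of KO-F2 as BDF3. Sons receive the Y chromosome of their father, so that all the males sampled carry a wild-type Scml2 and its level checks no label. It had 0 counts in every liver library and from 0 to 18 in spermatozoa.

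The 26S proteasome degrades proteins that carry ubiquitin chains. Its barrel, the 20S core, is built from rings of alpha and beta subunits, of which 3 beta subunits cut peptide bonds, and its cap, the 19S particle, holds ATPases that unfold the substrate and non-ATPase subunits that bind and remove ubiquitin. Specialised subunits can replace standard ones: Psmb8, Psmb9 and Psmb10 in the immunoproteasome of interferon-treated and immune cells, Psmb11 in thymic epithelium and Psma8 in male germ cells. Other caps include PA28 (Psme1 with Psme2, or Psme3) and PA200 (Psme4), which is known for the removal of histones in elongating spermatids. The 49 genes comprise 31 standard subunits, Psma8, the 4 immune and thymic beta subunits, 4 activators, the 20S-binding regulator PI31 (Psmf1), 3 chaperones of 19S assembly (Psmd5, Psmd9 and Psmd10) and 4 chaperones of 20S assembly (Psmg1 to Psmg4). The remaining gene, Psmc3ip, matches by symbol but encodes a partner of the meiotic recombinase DMC1 and no subunit.

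Promoters are printed for 5 of the genes that differed most between sperm groups, chosen after their values were seen: Psma6, Psmf1 and Psmc2, which were lower in both KO-F1 than in the other 4 sperm libraries, and Psma7 and Psmb3, which stood higher in both KO-F1 than in both Ctrl-F1 sperm libraries. Each window runs from 250 bases before to 50 after a start site annotated in RefSeq (GRCm38.p6), 5′ to 3′ on the strand of the gene. Psma6 and Psmc2 have 2 annotated starts each. The read counts are per gene and do not separate them. Psma6 lies on the plus strand of chromosome 12 from 55384222 to 55418459, and Psmf1 on the minus strand of chromosome 2 from 151716062 to 151744199.
Psma6, upstream start, chr12:55383972-55384271, + strand: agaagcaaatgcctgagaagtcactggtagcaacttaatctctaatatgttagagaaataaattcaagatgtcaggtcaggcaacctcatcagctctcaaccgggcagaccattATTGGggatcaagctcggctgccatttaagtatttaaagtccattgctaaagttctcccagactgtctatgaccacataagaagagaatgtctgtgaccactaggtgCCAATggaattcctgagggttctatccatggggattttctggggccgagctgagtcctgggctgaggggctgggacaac
Psma6, RefSeq Select start, chr12:55398575-55398874, + strand: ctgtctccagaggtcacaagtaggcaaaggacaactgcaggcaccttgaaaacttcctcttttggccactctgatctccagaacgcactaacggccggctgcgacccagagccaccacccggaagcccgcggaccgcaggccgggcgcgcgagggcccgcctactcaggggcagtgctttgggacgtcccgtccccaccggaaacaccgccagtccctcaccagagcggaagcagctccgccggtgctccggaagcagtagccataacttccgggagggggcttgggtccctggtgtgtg
Psmf1, chr2:151741261-151741560, - strand: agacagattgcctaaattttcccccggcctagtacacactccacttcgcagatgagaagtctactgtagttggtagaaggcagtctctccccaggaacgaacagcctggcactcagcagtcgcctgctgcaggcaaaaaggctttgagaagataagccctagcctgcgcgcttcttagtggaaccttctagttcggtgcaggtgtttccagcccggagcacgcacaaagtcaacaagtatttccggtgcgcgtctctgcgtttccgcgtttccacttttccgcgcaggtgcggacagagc
Psmc2, upstream start, chr5:21785025-21785324, + strand: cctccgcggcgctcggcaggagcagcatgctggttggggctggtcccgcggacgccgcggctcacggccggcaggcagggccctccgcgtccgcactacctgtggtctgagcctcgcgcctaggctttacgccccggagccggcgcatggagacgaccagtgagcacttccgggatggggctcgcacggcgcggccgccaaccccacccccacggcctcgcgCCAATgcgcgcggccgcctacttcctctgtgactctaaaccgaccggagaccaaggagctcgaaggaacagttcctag
Psmc2, RefSeq Select start, chr5:21786497-21786796, + strand: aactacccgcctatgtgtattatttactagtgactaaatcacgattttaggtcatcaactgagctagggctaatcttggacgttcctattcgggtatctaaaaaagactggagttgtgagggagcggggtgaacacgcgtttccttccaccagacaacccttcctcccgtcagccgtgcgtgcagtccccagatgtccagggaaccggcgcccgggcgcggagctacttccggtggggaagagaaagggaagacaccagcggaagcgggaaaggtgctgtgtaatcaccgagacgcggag
Psma7, chr2:180042415-180042714, - strand: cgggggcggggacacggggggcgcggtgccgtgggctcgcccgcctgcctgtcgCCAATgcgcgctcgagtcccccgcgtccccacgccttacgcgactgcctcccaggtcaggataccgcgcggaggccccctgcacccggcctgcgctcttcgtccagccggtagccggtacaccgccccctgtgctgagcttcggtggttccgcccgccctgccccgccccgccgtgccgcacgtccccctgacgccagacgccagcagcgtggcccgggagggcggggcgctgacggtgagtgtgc
Psmb3, chr11:97703184-97703483, + strand: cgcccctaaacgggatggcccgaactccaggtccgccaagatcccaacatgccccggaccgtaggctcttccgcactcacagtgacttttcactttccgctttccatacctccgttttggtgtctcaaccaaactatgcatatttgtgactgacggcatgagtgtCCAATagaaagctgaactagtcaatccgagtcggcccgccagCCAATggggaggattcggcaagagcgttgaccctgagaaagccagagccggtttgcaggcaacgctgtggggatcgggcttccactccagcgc
Capitals mark CCAAT boxes, read on either strand. The 2 in Psma6 lie before its upstream start, at 55384222 on chromosome 12, and its RefSeq Select start at 55398825 has none. Of the 49 genes, 41 had an entry in the promoter table, with 44 windows. CCAAT was found in 34.1% of those windows and in 37.4% of all 32851 windows of the table. The core of the antioxidant response element, TGACNNNGC, through which NFE2L1 and NFE2L2 act on proteasome genes, was found in 13.6% of the proteasome windows and 12.4% of all windows, and TGACGTCA in 0% and 1.79%. GCATGCGC, the core bound by nuclear respiratory factor, was found in 6.82% and 2.71%; these were the windows of 3 genes, Psma2, Psmc5 and Psmg1. All motifs were searched on both strands, and TGACGTCA, absent from all proteasome windows, could not occur there beside another motif.

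Liver libraries held from 11339729 to 14278900 counts, F1 sperm libraries from 1503733 to 2778171 and KO-F2 sperm libraries 11462105 and 8384266, so that 3 counts, taken as the detection floor, correspond to at most 0.295 CPM in liver, 2.14 CPM in F1 spermatozoa and 0.391 CPM in KO-F2 spermatozoa. Levels are given as CPM (the usual depth-normalised read count), from library totals scaled by TMM factors over all 10 libraries. Hepatocyte markers (Alb, Apoa1, Ttr, Apob, Cps1, Tat) summed to between 110400 and 129800 CPM in liver and to at most 3.09 CPM in spermatozoa. The 8 late spermatid markers (Prm1, Prm2, Tnp1, Tnp2, Odf1, Akap4, Smcp, Gapdhs), whose mRNA spermatozoa retain, summed to at most 1.14 CPM in liver, in which only Gapdhs was above 0. In spermatozoa this sum was 129400 and 119300 CPM in Ctrl-F1, 39520 and 31420 in KO-F1, then 163900 and 142600 in KO-F2. The sum over 12 leukocyte markers was 391 and 914 CPM in Ctrl-F1, 281 and 458 in KO-F1, then 5081 and 5926 in KO-F2 spermatozoa, where Lyz2 and Cd74 made up most of it and all 12 were above 0; Cd3e was at 0 in the 4 F1 sperm libraries. That over 9 epididymal markers was 545 and 399, 535 and 518, and 206 and 194 CPM, with the keratin Krt5 at 0 in 3 of the 4 F1 libraries. That over 6 markers of earlier germ cells was 85.5 and 63.4, 18.1 and 23.4, and 101 and 79.3 CPM. The late spermatid sum differed without overlap in each comparison of sperm groups below, and the earlier germ cell sum in those with KO-F1. The leukocyte and epididymal sums overlapped between Ctrl-F1 and KO-F1 and differed without overlap only against KO-F2. Of the 6 epididymal markers tested between F1 spermatozoa, 2 had a higher estimate in KO-F1 and 4 a lower one. All 9 leukocyte markers tested there had a lower estimate in KO-F1, by a median log2 fold change of −0.71, and 0 were called. The part of these shifts in the results was not tested. Fewer cells of a type and less RNA per cell cannot be told apart in these samples.

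In liver the 49 genes together took from 0.402% to 0.428% of the counts, and the standard subunits were at similar levels. Per kilobase of exon, the level of the 31 standard subunits had an SD of 0.652 to 0.813 on the log2 scale, and the subunit at the 90th percentile was 2.98 to 3.76 times that at the 10th. In spermatozoa the 49 genes took from 0.129% to 0.266% of the counts. These totals include reads of the ribosomal RNA gene Rn45s, 0.64% to 1.59% of counts in liver and 3.52% to 28.7% in spermatozoa. Their part in the difference of shares was not tested. The standard subunits were far more uneven in spermatozoa, with an SD of 1.29 to 1.74 and ratios of 6.48 to 15.1 between the same percentiles. The range was as wide in the deep KO-F2 libraries, whose lowest standard subunit had 33 and 31 counts, as in the F1 libraries, where it had 4 to 24.

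**Figure D1:**
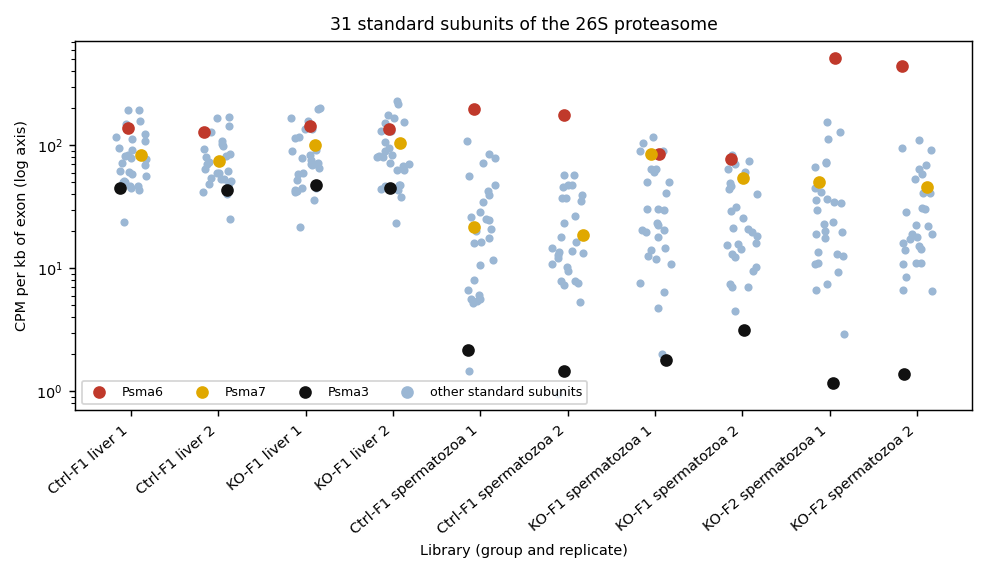
Level of each of the 31 standard subunits (CPM per kilobase of exon, log axis) in each of the 10 libraries; each point is 1 gene, with random sideways shifts, with Psma6 in red, Psma7 in yellow and Psma3 in black. Liver points span a narrow band, and sperm points spread, with Psma6 highest in Ctrl-F1 and KO-F2 and Psma3 lowest in KO-F1 and KO-F2.

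Psma6, a structural alpha subunit, stood apart in Ctrl-F1 and KO-F2 spermatozoa. Of the summed level of the 7 standard alpha subunits per kilobase, Psma6 made up 22.1%, 22.0%, 21.3% and 19.1% in the 4 liver libraries. It made up 76.4% and 73.9% in Ctrl-F1 spermatozoa, 33.9% and 41.7% in KO-F1 spermatozoa, whereas the values for KO-F2 spermatozoa were 81.5% and 80.1%. Across the 49 genes it ranked first per kilobase in Ctrl-F1 (mean 187 CPM per kilobase) and in KO-F2 spermatozoa (479 CPM per kilobase), and at rank 4 in KO-F1 spermatozoa (81.6 CPM per kilobase), behind Psmb6, Psmb3 and Psmb2 (94.2, 93.2 and 82.4). Of the same alpha sum, Psma7 made up 34.04% and 29.05% in KO-F1 spermatozoa. The Psma7 share was 8.349% and 7.885% in Ctrl-F1 and 7.901% and 8.328% in KO-F2 spermatozoa. Exon lengths are those of all annotated exons of a gene joined, so a long isoform that is not used lowers its gene's value. No 75-base read of the Psma6 transcript has an exact copy elsewhere in the genome, whereas 35.7% of the read starts of Psmd12, 25.9% of Psma3, 15.3% of Psmc3 and 6.44% of Psma5 have one, and only uniquely aligned reads were counted.

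**Figure D2:**
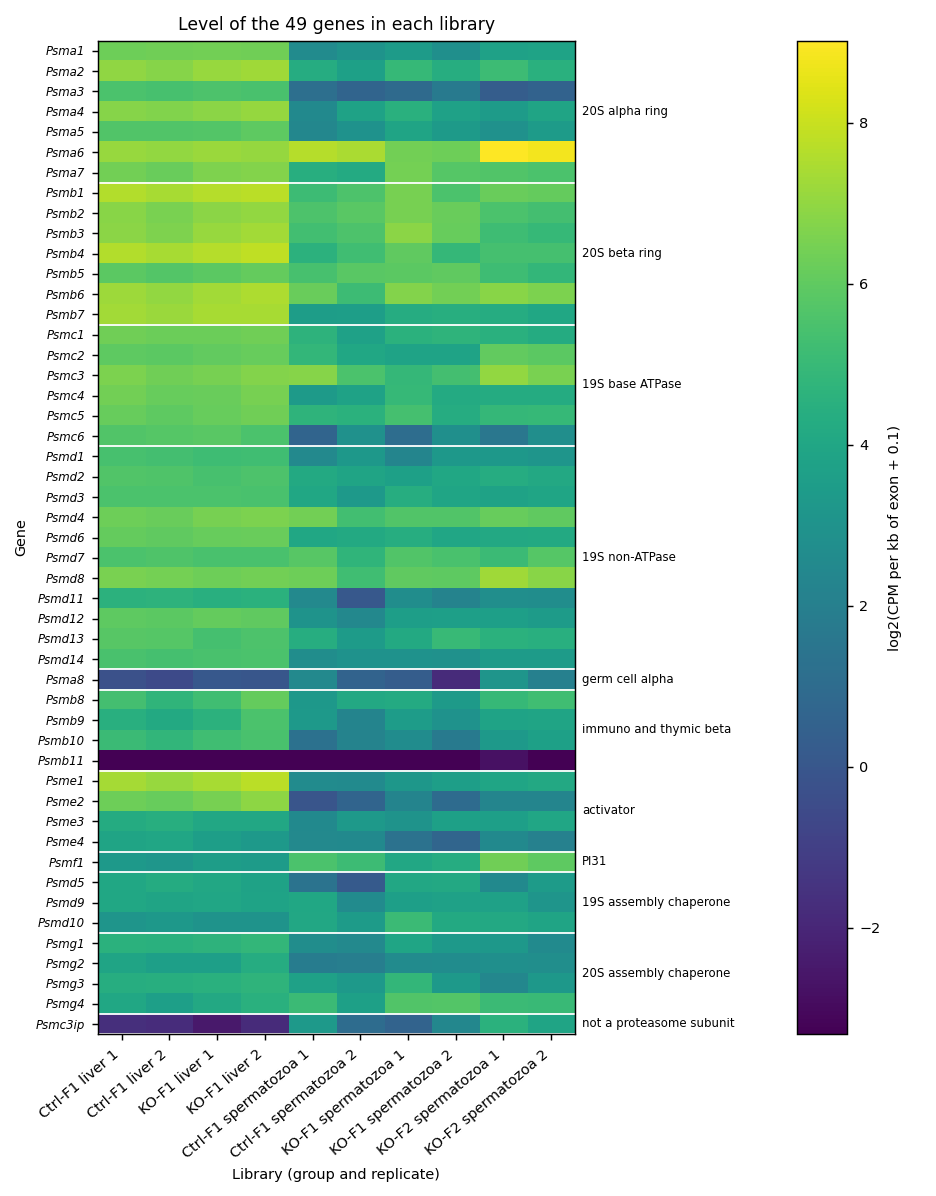
Level of each of the 49 genes (rows, ordered by role, which is written to the right) in each library (columns) as log2 of CPM per kilobase of exon plus 0.1. The 31 standard subunits form an even block in liver and an uneven one in spermatozoa, Psma6 and Psmf1 being brighter in Ctrl-F1 and KO-F2 than in KO-F1 spermatozoa and Psmb11 dark throughout.

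Whether the proteasome genes differ between spermatozoa and liver was asked in the offspring of each kind of sire. Most were lower in spermatozoa. In Ctrl-F1, 17 of the 48 genes tested fell (at least 2-fold at an adjusted p under 0.01, quasi-likelihood F test in edgeR, Benjamini-Hochberg adjusted over all genes tested) and 1 rose, Psmf1, beside 11.6% of all 13204 genes tested that fell, 18.6% that rose and 30.2% called in all. In KO-F1, 22 of 48 fell and 0 rose, beside 15.8%, 19.8% and 35.7% of 13076 genes. At an unadjusted p under 0.05, 4 were higher and 32 lower in each comparison. Over all genes, 7786 of 13204 in Ctrl-F1 and 7853 of 13076 in KO-F1 were at that p. DESeq2 called 2 higher and 24 lower in Ctrl-F1 and 1 higher and 25 lower in KO-F1, beside 5639 and 5492 genes in all. The median log2 fold change of the proteasome genes was −1.57 in Ctrl-F1 and −1.46 in KO-F1, beside medians of −0.02 and 0.03 over all genes. Scaled by library totals alone, all genes had a median of 0.51 in KO-F1, and 3 proteasome genes rose and 14 fell. Under either scaling, 7 of the 48 lay above the all-gene median in KO-F1. Liver libraries were made with a stranded mRNA kit and sperm libraries from amplified cDNA, so tissue and kit cannot be told apart. The number of proteasome genes called changed with the library left out in both comparisons.

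Called lower in both comparisons were 14 of the 48 genes, or 29.2%, against 9.98% of the 12410 genes tested in both, and none of the 48 was called higher in both. The 5 with the largest changes were the PA28 subunits Psme2 and Psme1, the alpha subunits Psma3 and Psma1 and the trypsin-like beta subunit Psmb7. Psme1 was at 158, 137, 163 and 212 CPM in liver and at 5.92, 5.70, 8.81 and 11.9 CPM in F1 spermatozoa, a log2 fold change of −4.42 ± 0.32 (SE) in Ctrl-F1 (adjusted p = 0.00121) and −4.10 ± 0.35 in KO-F1 (adjusted p = 0.00035). Its partner Psme2, at 70.4 to 118 CPM in liver, had 2 counts in each Ctrl-F1 sperm library, below the floor of 3. By group means Psme2 was at least 42.9-fold lower there. Psma3 was at 132, 126, 138 and 131 CPM in liver and at 6.35, 4.27, 5.29 and 9.28 CPM in F1 spermatozoa, and Psma1 at 99.2 to 104 CPM and at 7.62, 9.97, 13.6 and 8.91 CPM, so that the tissues were far apart for both. The remaining 3 had log2 fold changes of −4.33 ± 0.33 (Psma3), −3.27 ± 0.36 (Psma1) and −3.42 ± 0.30 (Psmb7) in Ctrl-F1 and of −4.14 ± 0.38, −3.08 ± 0.34 and −2.92 ± 0.28 in KO-F1. The PA200 gene Psme4 was called lower in KO-F1 alone (−2.41 ± 0.34, adjusted p = 0.00224; −1.18 ± 0.26, adjusted p = 0.0174 in Ctrl-F1), and the interaction term given below, which tests the difference between the 2, did not call it.

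Only 9 of the 48 genes in Ctrl-F1 and 7 in KO-F1 had a higher estimate in spermatozoa than in liver. Psmf1, which binds the 20S core, was at 37.8, 33.3, 43.5 and 40.4 CPM in liver and at 173 and 132 CPM in Ctrl-F1 spermatozoa, a log2 fold change of 2.35 ± 0.27 (adjusted p = 0.00277). In KO-F1 spermatozoa it was at 63.7 and 74.6 CPM, 0.81 ± 0.28 above KO-F1 liver (adjusted p = 0.0481, not called). It shares 684 bases of exon with Tmem74b on the opposite strand, which had 0 to 2 counts in every library. Psma6 was 0.73 ± 0.24 above liver in Ctrl-F1 and 0.69 ± 0.26 below it in KO-F1, neither called (adjusted p = 0.0539 and 0.0625). Psmc3ip, with 1 to 3 counts in each liver library, had 25 and 3 counts in Ctrl-F1, 6 and 15 in KO-F1, then 246 and 123 in KO-F2 spermatozoa. By group means, Psmc3ip was at least 28.6-fold above liver in Ctrl-F1 and at least 12.7-fold in KO-F1. The 3 counts of Ctrl-F1 replicate 2 were themselves at the floor. It was not called in either comparison (adjusted p = 0.0135 and 0.0143).

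A list of 37 other genes of the pathway held assembly, ubiquitin, shuttle and activator genes and 10 genes of antigen presentation and interferon response, and 36 of them were tested in both tissue comparisons. In Ctrl-F1 spermatozoa 9 were called lower than in liver and 2 higher, beside the 11.6% and 18.6% of all genes given above. Among the lower ones were Pomp, the maturation factor of the 20S core, the 19S ubiquitin receptor Adrm1, AI314180 (ECPAS), Txnl1, the ubiquitin fusion gene Rps27a, the ubiquitin-activating enzyme Uba1, the transcription factor Nfe2l1 and the unfoldase Vcp. Polyubiquitin Ubb, at 2.66 and 4.53 CPM in Ctrl-F1 liver, was higher at 41.9 and 35.6 CPM (log2 fold change 3.67 ± 0.47, adjusted p = 0.00402), as was tapasin (Tapbp), at 89 and 83.4 CPM in liver and 406 and 272 CPM in spermatozoa. In KO-F1, 11 were called lower and 0 higher, beside 15.8% and 19.8%; 7 of the 9 were lower here too, Pomp and Nfe2l1 being the exceptions, and those called as well included Tap2, H2-K1 and Nlrc5.

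The next question was whether the sire's genotype changed these genes in the spermatozoa of F1 males. No proteasome gene was called between KO-F1 and Ctrl-F1 spermatozoa, among 46 tested (Psma8, Psme2 and Psmb11 had too few counts), nor was any gene, 0% of 10785 by edgeR. At an unadjusted p under 0.05 there were 3 higher and 3 lower among the 46 and 2105 among all genes, and DESeq2 called 2 of the 46 and 390 of all genes. The smallest adjusted p of a member was 0.14. The level was higher in KO-F1 for 37 of 46. Their median was 0.52 on the log2 scale, beside 0.02 over all genes. Scaled by library totals the all-gene median moved to 0.46, and 40 were higher; 37 of 46 lay above the median of all genes under either scaling. Both KO-F1 libraries were above both Ctrl-F1 libraries for 16 of the 46 (34.8%, beside 26.8% of all genes) and below for 5 (10.9%, beside 26.7%).

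The 6 genes with the smallest p differed in both directions. Psmd5, a chaperone of 19S base assembly, was at 5.08 and 2.14 CPM (12 and 3 counts) in Ctrl-F1 and at 34.5 and 35.6 CPM (137 and 96 counts) in KO-F1, a log2 fold change of 3.31 ± 0.74 (adjusted p = 0.14). Psma7, the standard subunit whose place Psma8 takes in germ cells, was at 34.3 and 29.9 CPM against 136 and 86.5 CPM (1.86 ± 0.45, adjusted p = 0.14). For these 2 genes, both above all Ctrl-F1 values, DESeq2 gave adjusted p of 0.00584 and 0.0071 and called them, among 7.80% of the genes to which it gave an adjusted p. Psmb3, a structural beta subunit, was at 28.8 and 34.9 CPM against 85.1 and 51.2 CPM (1.16 ± 0.50, adjusted p = 0.25), and 0.74 without KO-F1 replicate 1.

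On the other side, Psma6 was at 218 and 194 CPM in Ctrl-F1 and at 93.9 and 86.1 CPM in KO-F1 spermatozoa, a log2 fold change of −1.13 ± 0.38 (adjusted p = 0.174). Psme4, the PA200 gene, was at 52.5 and 54.1 against 22.7 and 14.5 CPM (−1.45 ± 0.53, adjusted p = 0.197). Psmf1 was at 173 and 132 against 63.7 and 74.6 CPM (−1.07 ± 0.40, adjusted p = 0.203). The groups did not overlap for any of these 3, and none passed the test. The ATPase genes Psmc2 and Psmc3 were also below both Ctrl-F1 libraries, at 25.4 and 25.6 against 51.2 and 29.2 CPM and at 48.8 and 65.7 against 177 and 74.8 CPM. The late spermatid sum was lower in KO-F1 too, at 39520 and 31420 CPM against 129400 and 119300 CPM; its part in these differences was not tested.

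**Figure D3:**
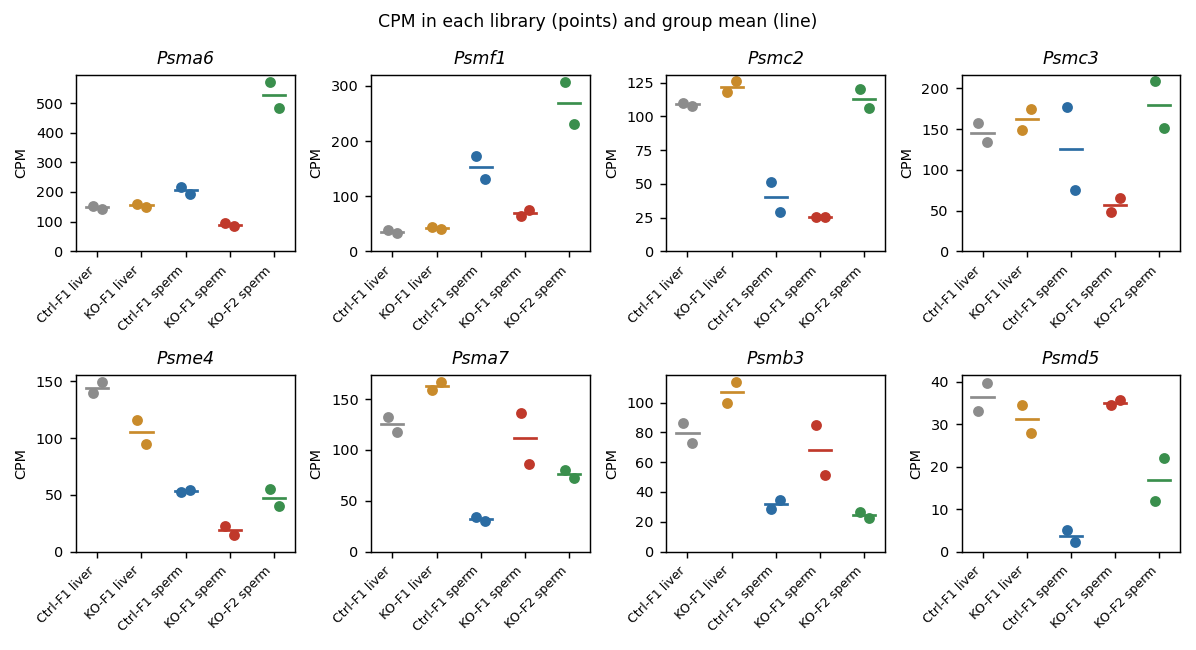
CPM of 8 genes in each library (points) and group mean (horizontal lines); sperm stands for spermatozoa, and each panel has its own axis from 0. Psma6, Psmf1, Psmc2, Psmc3 and Psme4 are lower in both KO-F1 sperm libraries than in all other sperm libraries, while Psma7, Psmb3 and Psmd5 are higher there.

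By role, all 7 standard beta subunits and 6 of the 7 standard alpha subunits had a higher estimate in KO-F1, Psma6 being the exception, and the medians were 0.80 and 0.71 on the log2 scale. The 7 chaperones were all higher in estimate, those of 20S assembly (Psmg1 to Psmg4) by a median of 0.99 and those of 19S assembly by 0.99. The 19S subunits were mixed, with 4 of 6 ATPases and 8 of 11 non-ATPases higher and medians of 0.22 and 0.19. None of these genes was called.

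The genes were also split by the tissue in which they were higher, a split chosen after the values were seen and given with no test. It used the ratio of the mean level in KO-F2 spermatozoa to that in the 4 liver libraries, which share no library with the comparison of F1 spermatozoa. Of the 39 tested genes at or below a ratio of 1, 34 were higher in KO-F1 spermatozoa, and their median was 0.55 on the log2 scale. Of the 7 above it (Psma6, Psmc3, Psmc3ip, Psmd8, Psmd10, Psmf1 and Psmg4), 3 were higher and 4 lower, so no direction prevailed. Over tested genes with a count in liver, the medians were 0.48 for 4614 at or below 1 and −0.24 for 5130 above it. Genes with 0 counts in all 4 liver libraries, such as Prm1 and Prm2, have no such ratio and were left out. Psmd10 shares 54 bases of exon with Atg4a, which had 5 to 97 counts in spermatozoa, and its level is uncertain.

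**Figure D4:**
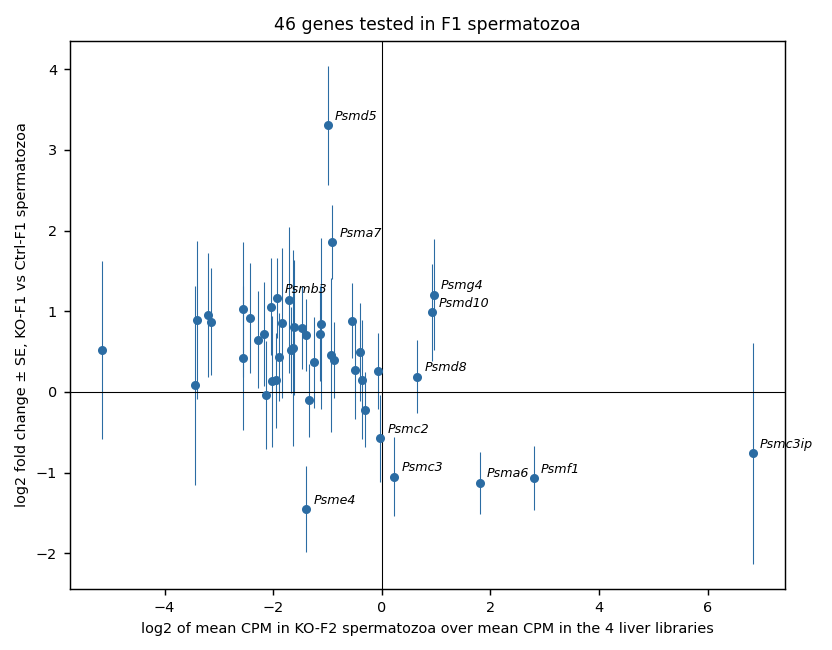
For the 46 genes tested in F1 spermatozoa, the log2 fold change of KO-F1 over Ctrl-F1 spermatozoa (vertical axis, with SE) against the log2 ratio of the mean CPM in KO-F2 spermatozoa to that in the 4 liver libraries (horizontal axis). Most points lie left of 0 and above 0; Psma6, Psmf1, Psmc3 and Psmc3ip lie right of 0 and below 0.

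KO-F2 spermatozoa were compared with Ctrl-F1 and with KO-F1 spermatozoa; both comparisons share libraries with the one above, and their values are given side by side. KO-F2 libraries were sequenced more deeply, and F1 males came from ICSI but KO-F2 males from mating. Generation, strain, mode of conception and depth cannot be told apart. Against Ctrl-F1, no proteasome gene was called among 48 tested, and no gene in all (0% of 13149); at an unadjusted p under 0.05, 4 of the 48 were higher and 0 lower, beside 1960 of all genes, and DESeq2 called 0 of the 48 and 277 of all genes. Leaving out any 1 library kept the count of proteasome genes at 0 and gave from 35 (without KO-F2 replicate 2) to 277 (without Ctrl-F1 replicate 2) calls over all genes. The 6 genes with the smallest p were Psma6 (1.08 ± 0.28, adjusted p = 0.212), Psmc2 (1.22 ± 0.36, 0.225), Psma7 (0.97 ± 0.33, 0.248), Psmd5 (1.93 ± 0.78, 0.326), the 19S lid subunit Psmd8 (0.92 ± 0.40, 0.361) and the chymotrypsin-like Psmb5 (−0.90 ± 0.40, 0.376), as log2 fold changes with SE and adjusted p. Psmd8 was at 234 and 169 CPM in KO-F2 and at 120 and 56.2 CPM in Ctrl-F1, and Psmd5 at 11.8 and 22 CPM in KO-F2. Without Ctrl-F1 replicate 1 the log2 fold change of Psmd8 was 1.5, and without replicate 2 it was 0.59, and that of Psmb5 was −0.53 without replicate 2. Both KO-F2 libraries lay above both Ctrl-F1 libraries for 26 of the 48 (54.2%, beside 37.9% of all genes) and below for 5 (10.4%, beside 13.1%).

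Against KO-F1, Psma6 rose and was the only 1 of 48 proteasome genes called (2.08%, beside 2.31% of 13517 genes). It was at 93.9 and 86.1 CPM in KO-F1 and at 572 and 484 CPM in KO-F2, a log2 fold change of 2.34 ± 0.32 (adjusted p = 0.00954), with no overlap. The call was lost without KO-F2 replicate 1 (2.27, adjusted p = 0.0158) and when libraries were scaled by their totals (1.92, adjusted p = 0.0167). Without KO-F1 replicate 1 the log2 fold change of Psma6 was 2.37, and without KO-F1 replicate 2 it was 2.23. DESeq2 called 5 of the genes, Psma6, Psmc2, Psmf1, Psmc3 and Psmb3, beside 13.6% of the genes to which it gave an adjusted p.

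The 5 genes next in order did not pass both thresholds. Psmc2 was at 120 and 106 CPM in KO-F2 (1.94 ± 0.32 above KO-F1, adjusted p = 0.0114), Psmf1 at 307 and 231 CPM (1.75 ± 0.33, 0.0151) and Psmc3 at 209 and 151 CPM (1.44 ± 0.34, 0.0293). Psmb3 was at 26.3 and 22.7 CPM (−1.69 ± 0.38, 0.025), and Psmb2, another structural beta subunit, at 38.6 and 34.8 against 77.0 and 63.5 CPM (−1.15 ± 0.32, 0.0453). Both libraries were higher in KO-F2 for 19 of the 48 (39.6%, beside 41.9% of all genes) and lower for 13 (27.1%, beside 24.2%). All 7 standard beta subunits and all 7 chaperones had a lower fitted estimate in KO-F2 than in KO-F1, and 5 of 7 alpha subunits did. The fits scale the 4 libraries compared, and the CPM all 10 libraries, and 3 genes near 0 differed in sign between them: Psmb6 (log2 fold change −0.06 and mean CPM of 113.5 against 102.5), Psmb1 (−0.16, 73.28 against 70.94) and Psmg2 (−0.07, 9.125 against 8.296). The median over the 48 was −0.13, beside 0.13 over all genes; scaled by totals these were −0.55 and −0.30. The late spermatid and leukocyte sums given above were both higher in KO-F2, and 7 of the 12 leukocyte markers were called here, as were Tnp1 and Gapdhs; their part in the call of Psma6 was not tested.

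**Figure D5:**
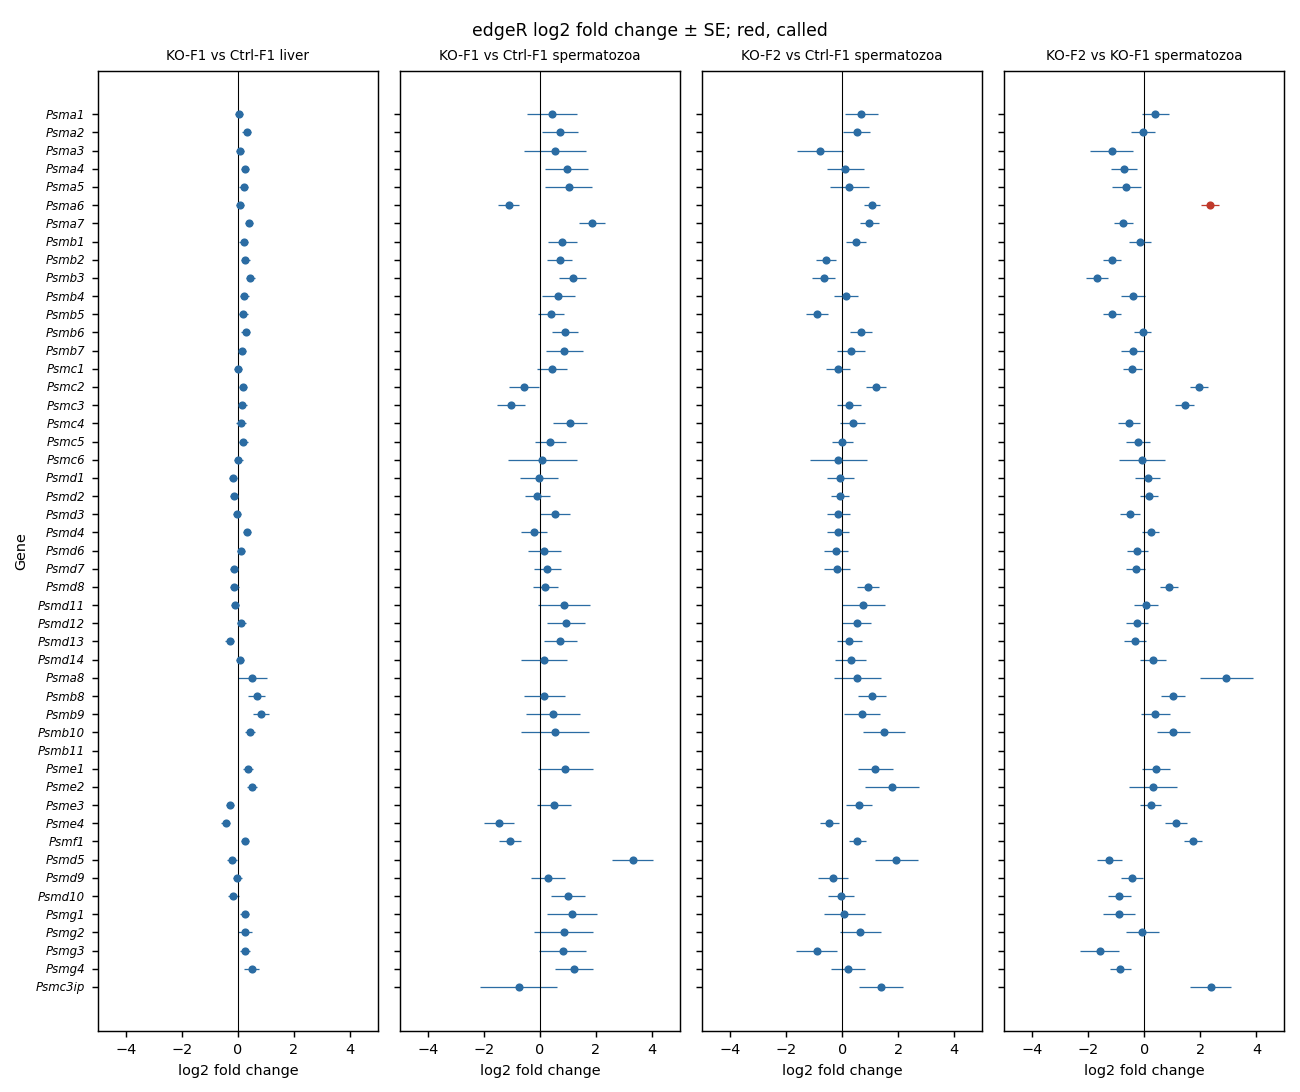
Log2 fold change with its SE for each of the 49 genes, in the order of their roles, in 4 comparisons, each as the first group over the second; red marks the gene called and a gene with no point was not tested. Liver values stay within 1 of 0, and in spermatozoa Psma6 lies below 0 in KO-F1 against Ctrl-F1 and above 0 in both KO-F2 comparisons.

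In liver, no proteasome gene was called between KO-F1 and Ctrl-F1 among 47 tested, nor was any gene (0% of 11505). At an unadjusted p under 0.05, 5 of the 47 were higher and 1 lower, beside 1083 of all genes, and DESeq2 called 0 of the 47 and 20 of all genes. Leaving out any 1 library kept the count of proteasome genes at 0 and gave from 4 (without KO-F1 replicate 2) to 107 (without Ctrl-F1 replicate 1) calls over all genes. KO-F1 had the higher level for 34 of 47, and the median difference on the log2 scale was 0.17 beside −0.01 over all genes; by library totals 31 were higher and the medians were 0.11 and −0.07. All 7 standard alpha and all 7 standard beta subunits were higher in estimate, by medians of 0.20 and 0.23, and 7 of 11 non-ATPase subunits of the 19S particle were lower, as were the 3 chaperones of its assembly. Both KO-F1 libraries were above both Ctrl-F1 libraries for 25 of the 47 (53.2%, beside 19.6% of all genes) and below for 10 (21.3%, beside 22.1%). For the 7 beta subunits that was the case in all 7.

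Of the 6 genes with the smallest p in liver, 3 were interferon-inducible. The immunoproteasome gene Psmb9 was at 23.3 and 19.4 CPM in Ctrl-F1 and at 25.6 and 49.4 CPM in KO-F1 (0.82 ± 0.30, adjusted p = 0.502), and Psmb10 at 42.7 and 35.1 against 48.3 and 55.5 CPM (0.42 ± 0.17, 0.51). Psme2 was at 75.6 and 70.4 against 87.9 and 118 CPM (0.50 ± 0.18, 0.504). In each case KO-F1 liver replicate 2 was the highest, and replicate 1 lay nearer to the controls. Without replicate 2 the log2 fold change of Psmb9 was 0.27 and that of Psme2 0.27, and without replicate 1 they were 1.23 and 0.71. The summed level of 12 leukocyte markers was 139 and 234 CPM in Ctrl-F1 and 159 and 359 CPM in KO-F1 liver, and that of 10 antigen presentation and interferon genes 4069, 3743, 4381 and 5446 CPM, so replicate 2 was highest in these too. Their part in the difference was not tested.

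The standard subunits among the 6 were Psmb3, at 86.0 and 72.9 against 99.9 and 114 CPM (0.44 ± 0.16, adjusted p = 0.509), and Psma7, at 132 and 118 against 159 and 167 CPM (0.38 ± 0.15, 0.51). Psme4 was at 140 and 149 CPM against 116 and 94.8 CPM (−0.44 ± 0.16, adjusted p = 0.505). The effect of the sire in spermatozoa was set against that in liver by an interaction term over the 8 F1 libraries, added after the data were seen. No proteasome gene passed (smallest adjusted p 0.152), nor did any of 14415 genes, 2068 having an unadjusted p under 0.05.

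The specialised subunits were compared with the standard ones they replace, as a share of the pair per kilobase with 95% Wilson intervals. The sperm cDNA was amplified, so intervals and floors cover counting error only. Psma8, the germ cell partner of Psma7, was at 1.15 to 1.91 CPM in liver, or 0.774% to 0.957% of its pair. In Ctrl-F1 spermatozoa it was at 11 and 2.85 CPM, 20.5% of the pair (interval 14.2% to 28.5%) and 7.09% (2.77% to 17.0%). In KO-F1 it was at 2.27 and 0.371 CPM, 9 and 1 counts, which gave 1.32% (0.694% to 2.49%) and 0.343% (0.0605% to 1.92%). In KO-F2 it was at 16.9 and 7.95 CPM, 14.5% (12.5% to 16.7%) and 8.07% (6.31% to 10.2%). The intervals of the KO-F1 libraries lie below those of the other sperm libraries, and replicates of a group differ by more than their intervals in KO-F2. Between KO-F2 and KO-F1 the log2 fold change of Psma8 was 2.93 ± 0.95 (adjusted p = 0.0686, not called), and it was not tested between F1 groups.

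Among the catalytic pairs, Psmb8, which replaces the chymotrypsin-like Psmb5, took 40.4%, 33.9%, 38.3% and 50.8% of its pair in liver. It took 18.1% and 23.4% in Ctrl-F1, 23.1% and 13.8% in KO-F1, then 45.3% and 56.7% in KO-F2 spermatozoa. Psmb8 was at 49, 33.3, 45.5 and 85.2 CPM in liver, at 11.4 and 21.4 CPM in Ctrl-F1, 22.4 and 12.6 CPM in KO-F1, then 37.1 and 45.8 CPM in KO-F2 spermatozoa, where it exceeded all F1 sperm libraries. Psmb5 was at 46.2 to 58.9 CPM in liver, at 36.8 and 49.8 CPM in Ctrl-F1, 53.1 and 56.1 CPM in KO-F1, then 32.0 and 24.9 CPM in KO-F2, where it was lowest. Against Ctrl-F1, Psmb8 differed in KO-F2 by 1.06 ± 0.51 (adjusted p = 0.409) and against KO-F1 by 1.03 ± 0.43 (adjusted p = 0.128), neither called.

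At the trypsin-like site the KO-F2 shares were also the highest among the sperm libraries, but liver lay within the range of F1 spermatozoa. Psmb10 was at 2.96 and 5.70 CPM (7 and 8 counts) in Ctrl-F1, 8.05 and 4.08 CPM in KO-F1, then 12.9 and 16.3 CPM in KO-F2 spermatozoa, and took 33.8% and 44.5% of its pair with Psmb7 in KO-F2 beside 13% to 27% in F1 spermatozoa and 16.1% to 20.7% in liver. The interval of the lower KO-F2 share (29% to 38.9%) overlapped those of both Ctrl-F1 libraries (8.25% to 31% and 14.1% to 45.4%) and of KO-F1 replicate 1 (17.5% to 32.2%), and that of the higher one (38.5% to 50.6%) overlapped Ctrl-F1 replicate 2, whereas for Psmb8 the KO-F2 intervals lay above those of all F1 sperm libraries. Psmb7 was at 153 to 177 CPM in liver, 12.3 and 12.8 CPM in Ctrl-F1, 21.1 and 22.6 CPM in KO-F1, then 21.0 and 16.9 CPM in KO-F2. The caspase-like site did not: Psmb9 took 12.0% and 11.7% of its pair with Psmb6 in Ctrl-F1, 9.78% and 8.36% in KO-F1, then 11.2% and 13.4% in KO-F2 spermatozoa, beside 12.3% to 20.6% in liver. Psmb9 was at 10.6 and 4.98, 12.1 and 8.17, and 15.2 and 15.8 CPM, and Psmb6 at 79.1 and 38.4, 114 and 91.3, and 123 and 104 CPM in the 3 sperm groups and at 140 to 194 CPM in liver. The leukocyte sum was 5081 and 5926 CPM in KO-F2 and at most 914 CPM in F1 spermatozoa. Among sperm libraries the Psmb8 and Psmb10 shares were likewise highest in KO-F2. Between replicates both shares were higher where the sum was higher in Ctrl-F1 and KO-F2, and lower where it was higher in KO-F1. The part of the leukocyte sum in these shares was not tested. Psmb11 had 2 counts in KO-F2 replicate 1 and 0 counts in the other 9 libraries.

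Of the activators, Psme1 was at 14.8 and 16.9 CPM and Psme2 at 4.64 and 4.69 CPM in KO-F2 spermatozoa, above all F1 sperm libraries for both. Psme2 was at 4.53 and 1.86 CPM (18 and 5 counts) in KO-F1. By group means, Psme2 was at least 1.88-fold above the Ctrl-F1 floor in KO-F1 and at least 2.74-fold in KO-F2. The KO-F1 value of 1.86 CPM lay below the floor of Ctrl-F1 replicate 2, 2.14 CPM. Psme3, which forms a nuclear cap, was at 61.5, 68.4, 53.0 and 53.1 CPM in liver and at 18.2 and 30.6, 25.7 and 40.5, and 39.5 and 49.4 CPM in Ctrl-F1, KO-F1 and KO-F2 spermatozoa. Psme4 was at 55.1 and 39.9 CPM in KO-F2, 1 library above both Ctrl-F1 values and 1 below both, and 1.14 ± 0.40 above KO-F1 (adjusted p = 0.0869, not called). Psme4 shares 156 bases of exon with Erlec1.

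The pathway genes were tested in the same fits, and edgeR called none of the 37 between sires or generations. At an unadjusted p under 0.05 there were 5 in liver, 6 between F1 spermatozoa, 8 between KO-F2 and Ctrl-F1 and 9 between KO-F2 and KO-F1, and DESeq2 called 0, 0, 1 and 4. Over all genes there were 1083, 2105, 1960 and 4968 at that p and 20, 390, 277 and 2058 calls by DESeq2. In F1 spermatozoa 24 of 34 tested had a higher estimate in KO-F1 and the median was 0.60 on the log2 scale, beside 0.02 over all genes. The antigen presentation and interferon genes among them went the other way, with 3 of 9 higher and a median of −0.11. The smallest p were those of Nfe2l1, which drives transcription of proteasome genes (1.58 ± 0.50, adjusted p = 0.157), Pomp (1.48 ± 0.51, 0.178) and the shuttle factor Ubqln4 (1.97 ± 0.70, 0.185). Nfe2l1 was at 36.0 and 24.2 CPM in Ctrl-F1, 62.9 and 108 CPM in KO-F1, then 31.5 and 40.5 CPM in KO-F2 spermatozoa. Against Ctrl-F1, KO-F2 spermatozoa had the smallest p for H2-K1 (−1.58 ± 0.37, adjusted p = 0.203), Vcp (−1.51 ± 0.39, 0.212) and Rad23b (−1.21 ± 0.31, 0.212). Against KO-F1 they were those of Vcp (−1.86 ± 0.34, adjusted p = 0.0149), B2m (−1.67 ± 0.38, 0.0269) and Nfe2l1 (−1.45 ± 0.39, 0.0402), and 26 of the 35 tested had a lower estimate in KO-F2, with a median of −0.48 beside 0.13 over all genes. In liver they were the shuttle protease Ddi2 (−1.03 ± 0.19, adjusted p = 0.316), Nploc4 (−0.58 ± 0.15, 0.435) and H2-D1 (0.70 ± 0.24, 0.492).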

How the data were processed

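RNA was sequenced (single-end, 75 bp) from 4 liver and 6 sperm libraries. Liver libraries were made with TruSeq Stranded mRNA, and sperm libraries from motile cauda epididymal spermatozoa with SMART-Seq v4 and Nextera XT. The authors aligned reads with HISAT2 (2.1.0) to mm10 and deposited raw counts of uniquely aligned reads per gene, made with featureCounts; the annotation and strand setting are not given in the sources used here. Of 23420 lines per file, 4 lines of 2 symbols listed more than once were left out.

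Library totals were 1503733 to 14278900 counts. Genes were filtered with filterByExpr (minimum count 10, minimum total 15) and tested across the whole table, for the groups compared, with the quasi-likelihood F test of edgeR (4.0.16, R 4.3.3) after TMM scaling. Calls required a 2-fold difference or more together with an adjusted p (Benjamini-Hochberg) below 0.01, and the SE is the log2 fold change divided by the square root of F. Printed adjusted p are from edgeR unless DESeq2 (1.42.0) is named. With 2 libraries a group an exact permutation test cannot give a two-sided p below 0.333. Counts of replicates differed beyond sampling noise (chi-square over degrees of freedom 25.5 to 81.9).

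Values in every library are given for specialised subunits, their standard partners, activators, Psmf1 and Psmc3ip, for genes called between sires or generations or else the 6 with the smallest p, and for the 5 largest changes called in both tissue comparisons. Of the pathway list the genes called or the 3 with the smallest p are named. Some genes of that list are not reported here. Other genes named were chosen after their values were seen. The members and lists were chosen with earlier results of these data known. Exon lengths, positions and promoters are from RefSeq (GRCm38.p6), which held a length for all 49 genes, and exact copies were searched with blastn (2.17.0). The ChIP-seq and embryo samples were not analysed here.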

Additional observations from a re-analysis of the deposited data

Results flagged for a closer look

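Psma6 differed between the spermatozoa of the 2 generations. Against the same Ctrl-F1 libraries its log2 fold change was −1.13 ± 0.38 in KO-F1 and 1.08 ± 0.28 in KO-F2, neither called by edgeR (adjusted p = 0.174 and 0.212). The difference itself was tested by comparing KO-F2 with KO-F1 spermatozoa, which gave 2.34 ± 0.32 (edgeR, adjusted p = 0.00954), and both KO-F2 libraries were above both KO-F1 libraries. In that comparison 2.31% of all 13517 genes were called. The call of Psma6 was lost when libraries were scaled by their totals (1.92, edgeR, adjusted p = 0.0167). Strain, mode of conception and depth differed along with generation.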

How the results depend on the processing

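The counts of proteasome genes called stayed at 0 for KO-F1 against Ctrl-F1 liver and for KO-F2 against Ctrl-F1 spermatozoa under every alternative run, and for KO-F1 against Ctrl-F1 spermatozoa except with DESeq2, which called 2. For KO-F2 against KO-F1 spermatozoa the 1 call became 5 with DESeq2, 0 with library totals and 6 with no filter. At an adjusted p under 0.05 with no fold threshold it became 6, beside 2759 genes in all. It also changed when a library was left out. The 18 calls between Ctrl-F1 spermatozoa and liver, beside 3990 over all genes, became 33 at an adjusted p under 0.05 with no fold threshold. They and the 22 in KO-F1, beside 4662 over all genes, also changed when a library was left out. The cause was not tested. Where a library left out leaves 1 in a group, that library is assumed to vary like the other group. No gene whose log2 fold change was recomputed and no median over the proteasome genes changed sign, but scaling by library totals changed the sign of single estimates: for KO-F2 against KO-F1 spermatozoa 11 proteasome genes were higher and 37 lower, against 20 and 28, and between KO-F1 tissues 13 and 35, against 7 and 41.

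Over all genes tested, KO-F2 against KO-F1 spermatozoa gave 312 calls, against 2058 with DESeq2, 2552 with no filter, 0 with library totals and 230 to 2898 without a library. For KO-F2 against Ctrl-F1 spermatozoa the 0 calls became 277 with DESeq2, 39 with no filter, 362 with the block and 35 to 277 without a library, in liver 20, 25, 2 and 4 to 107, and for KO-F1 against Ctrl-F1 spermatozoa 390, 113, 0 and 0. With the replicate number as a block, 2 proteasome genes and 819 genes in all were called between KO-F2 and KO-F1 spermatozoa. That block gave 13 proteasome genes between Ctrl-F1 tissues and 25 between KO-F1 tissues, and 0 in the other 3 comparisons. Apart from those of DESeq2, calls over all genes in the alternative runs between tissues are not reported here. Deviations of same-numbered libraries correlated at −0.159 to 0.158. With 2 libraries a group this cannot show whether equal numbers stand for a shared animal or batch. Whether the block is a pairing is therefore unknown. A block that crossed the numbers in liver, added after seeing the data, called 0 genes, against 2 with the numbers as given. F1 sperm libraries held the fewest counts, so genes under 2.14 CPM could lie below 3 counts there.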
